A study of Mus musculus with 38 samples.

Results

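The transcriptomes of kidney tumours from VM mice were compared with those of kidney tumours from MYC mice. The question is how the loss of Vhl changes the expression profile of tumours that share an activated MYC transgene. The comparison holds 6 of the 38 libraries of the series, chosen by their genotype labels: 3 VM tumours (mice 3115, 3055 and 2459) and 3 MYC tumours (1 from mouse 2917 and 2 from mouse 2983). These come from 5 animals. MYC mice carried Ksp-rtTA and Tet-O-Myc, and VM mice carried in addition a tamoxifen-inducible Cre recombinase driven by the Ksp-cadherin promoter (KspCreERT2) and floxed Vhl alleles (Vhl F/F). Both groups therefore share the MYC transgene, which the Ksp promoter restricts to renal tubule cells, and both were kept on doxycycline chow. It was started in young adulthood in MYC mice. In mice with Cre it followed tamoxifen, given by mouth to activate Cre, and the age at start is not given in the sources used here. Whether MYC mice also received it is not given in the sources used here, so the Cre driver, tamoxifen and the loss of Vhl cannot be told apart. All 6 libraries carried Y-linked transcripts (at least 636 normalized units for each of 4 genes) and at most 15.9 units of Xist, so sex did not differ between the groups. RNA was from bulk tumour tissue, in which fewer cells of a type and less RNA per cell cannot be told apart, and tumour stage and time on doxycycline per library are not given in the sources used here.

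Values are read counts scaled within each library so that the upper quartile of genes above 0 is about 1000, and are called units here. The worth of 1 read was 0.933 to 1.54 units and the estimated depth was 9.44 M to 15.4 M reads per library, so that 3 reads, taken as the limit of detection, correspond to 2.80 to 4.63 units. This limit covers counting error only. Levels are not divided by transcript length, so a higher value of 1 gene than another does not mean more molecules. Values are given in a fixed order, MYC before VM: mouse 2917 and the 2 libraries of mouse 2983, then mice 3115, 3055 and 2459. A range is the lowest to the highest library of each group in the same order. Genes were compared on the log2(value + 1) scale with limma over the 5 animals, the 2 libraries of mouse 2983 being averaged, and passing required an adjusted p (Benjamini-Hochberg) below 0.05 together with a log2 difference over 1 in either direction. Differences on this scale understate the fold change of low genes.

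VHL is the substrate-recognition subunit of an E3 ubiquitin ligase that marks the hypoxia-inducible factor (HIF) alpha subunits for destruction once prolyl hydroxylases of the Egln family have modified them in the presence of oxygen. Without VHL, HIF alpha subunits persist, pair with Arnt, and bind hypoxia-response elements in genes for glycolysis, mitophagy, angiogenesis, pH control and collagen modification. VHL loss is the hallmark lesion of clear cell renal cell carcinoma, whereas MYC drives ribosome production, nucleotide synthesis and cell-cycle entry, and both programmes are known to reach glycolytic genes.

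Of 21705 genes in the table, 16085 were above 0 in at least 2 of the 5 animals and were tested. None passed, that is 0 higher and 0 lower in VM tumours (0% of those tested in each direction). The lowest adjusted p was 0.0697, for Me1. At an unadjusted p under 0.05 there were 2110 genes. EdgeR and limma voom on the recovered reads also passed 0 genes, with 2161 and 2292 at an unadjusted p under 0.05. When the 3 VIM tumours, which carry the VM alleles and a germline Ink4a/Arf deletion, and the 5 normal kidneys were placed in the same fit to estimate the spread between animals, 350 genes passed: 137 higher in VM tumours (0.852% of those tested) and 213 lower (1.32%). The median SD between animals on the log2 scale was 0.297 in normal kidney, 0.329 in the 2 MYC mice, 0.444 in the 3 VM mice and 0.513 in the VIM mice, so this fit, called the 4-group fit here, judges the tumours partly by the smaller spread of kidney. With the 3 tumour groups alone 16 genes passed. The kidneys are wild type and carry the labels B6 (2 libraries) and KT (3 libraries), which are pooled here. With these labels as separate groups, an alternative added after seeing the data, 280 genes passed, 106 higher and 174 lower. No gene is described as having risen or fallen, and the 4-group result is given beside the values as a secondary measure. The values of the 6 libraries did not overlap between the groups for 1494 genes higher in VM tumours (9.29%) and 2173 lower (13.5%). These shares are the background for the counts of each gene list. After TMM rescaling the same counts were 1997 higher and 1631 lower, and after quantile normalization 2060 and 1647. The balance between higher and lower genes thus depends on the scaling (59.3% lower as deposited, 45% and 44.4% after rescaling). The median log2 difference of all genes was -0.13, and -0.04 and 0.01 after these rescalings, and list medians are to be read against it.

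Vhl (chr6:113573953-113581627, plus strand, mm9) had 559.7, 471 and 468 units in the MYC libraries and 79.9, 40.2 and 40.7 units in the VM libraries (log2 difference -3.31, SE 0.51, adjusted p = 0.144, and 0.00065 in the 4-group fit). The library values stand well apart, and those of mouse 3055 and 2459 were close to 40. Reads of the floxed and the remaining part of the gene are summed in the table, so what transcript the VM value comes from is not resolved. Myc had 208, 438 and 389.8 units in MYC tumours and 409, 462 and 801 in VM tumours, which overlap, against 66.9 ± 30.7 (SD, n = 5) in normal kidney; these values sum transgene and endogenous reads as far as they map to the mouse gene. Of the 14 genes of the Vhl complex and HIF pathway, 5 had values without overlap that were higher in VM tumours (Egln1, Egln3, Tceb1, Tceb2 and Rbx1). These were 35.7% of the list, against 9.29% of all genes. Another 4 had lower ones (Vhl, Hif1a, Arnt2 and Hif1an), 28.6% against 13.5%. The median log2 difference was 0.08. Egln1 and Egln3 are counted again among the HIF targets below. Egln3, a HIF prolyl hydroxylase that is itself a HIF target, had 356, 1204 and 938 units in MYC tumours and 8108, 4896 and 7253 in VM tumours (log2 difference 3.42, SE 0.47, adjusted p = 0.137, 0.00619 in the 4-group fit). Egln1, the main oxygen-sensing hydroxylase, had 1051 to 1674 and 2768 to 3828 units (log2 difference 1.28, SE 0.26). Hif1a, a HIF alpha subunit, was at 1753, 2268 and 1751 units in MYC tumours and 1073, 1189 and 941 in VM tumours (log2 difference -0.81, SE 0.21, adjusted p = 0.234). Epas1, which encodes HIF-2 alpha, was at 396, 333 and 151 and 405, 46.4 and 59.2 units, with the library of mouse 3115 at the level of the MYC tumours and the other 2 VM libraries below them.

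The promoters of 4 genes with higher values in VM tumours are shown because HIF acts at the sequence ACGTG or GCGTG. The 250 bases before the RefSeq start (GRCm38.p6, read 5′ to 3′ on the strand of the gene) are printed in lower case, and capitals mark ACGTG or GCGTG on either strand (CACGT and CACGC on the printed strand). A CACGTG run, the E-box that MYC and MAX bind, contains ACGTG on both strands and is capitalised whole.
Egln3 (chr12:54203875-54204124, minus strand): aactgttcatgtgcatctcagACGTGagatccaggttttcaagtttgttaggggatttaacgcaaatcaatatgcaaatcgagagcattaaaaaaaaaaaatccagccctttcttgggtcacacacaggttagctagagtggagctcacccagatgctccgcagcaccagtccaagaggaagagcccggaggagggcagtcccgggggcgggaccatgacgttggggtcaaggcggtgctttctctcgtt
Slc16a3 (chr11:120948817-120949066, plus strand): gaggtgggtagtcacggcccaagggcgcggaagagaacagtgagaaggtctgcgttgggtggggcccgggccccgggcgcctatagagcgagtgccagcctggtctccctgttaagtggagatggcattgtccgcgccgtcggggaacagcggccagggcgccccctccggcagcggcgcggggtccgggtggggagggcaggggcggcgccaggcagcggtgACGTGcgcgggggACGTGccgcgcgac
Pgk1 (chrX:106186850-106187099, plus strand): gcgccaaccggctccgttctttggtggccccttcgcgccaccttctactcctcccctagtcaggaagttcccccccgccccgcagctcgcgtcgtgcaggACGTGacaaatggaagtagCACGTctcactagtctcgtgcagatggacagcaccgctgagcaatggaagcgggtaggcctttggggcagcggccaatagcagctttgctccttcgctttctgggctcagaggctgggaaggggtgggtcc
Ldha (chr7:46845554-46845803, plus strand): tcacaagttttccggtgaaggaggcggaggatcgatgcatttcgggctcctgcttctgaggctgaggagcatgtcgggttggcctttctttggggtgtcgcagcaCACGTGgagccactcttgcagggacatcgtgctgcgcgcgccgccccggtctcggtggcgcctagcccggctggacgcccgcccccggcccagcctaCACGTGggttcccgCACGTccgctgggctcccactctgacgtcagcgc
The Egln3 window held 1 such match, the Slc16a3 window 2 and the Pgk1 window 2, none of them in a CACGTG, while the Ldha window held 5 matches, 4 of which are the 2 strands of its 2 CACGTG runs. Windows also examined but not printed were those of Bnip3 (5 matches, 1 CACGTG), Fam162a (6 matches, 0 CACGTG) and a second Ldha start (1 match, 0 CACGTG). Among the tested genes with a promoter in the RefSeq set (11224), 23.6% had ACGTG, 46.5% had GCGTG, 57.4% had at least 1 of them and 9.39% had CACGTG. Of the HIF targets outside glycolysis, 27 had a promoter there, of which 24 (88.9%) had ACGTG or GCGTG, and of the glycolysis genes 19 of 22 (86.4%) did. For CACGTG the counts were 2 of 27 (7.41%) and 4 of 22 (18.2%). Among the oxidative phosphorylation genes 12 of 24 (50%) had ACGTG or GCGTG. A match is a run of letters and not a bound site.

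HIF targets outside glycolysis had higher values in VM tumours for 34 of the 40 members tested, with a median log2 difference of 0.83. The groups did not overlap for 13 members that were higher (32.5%, against 9.29% of all genes) and for 1 that was lower (2.5%, against 13.5%). In the main test 0 passed, and 5 higher members passed in the 4-group fit (Egln1, Egln3, P4ha2, Fam162a and Slc16a3). Of the 42 listed, 1 was not analysed here and Epo was too low to be tested. Bnip3, a mitophagy receptor of the outer mitochondrial membrane, had 1257, 3685 and 3120.1 units in MYC tumours and 15691, 10235 and 9792 in VM tumours (log2 difference 2.49, SE 0.45, adjusted p = 0.172, 0.101 in the 4-group fit). Its relative Bnip3l was at 1741 to 3506 and 4408 to 5848 units (log2 difference 1.13, SE 0.30). Fam162a, a hypoxia-induced mitochondrial protein, was at 855, 1082 and 1403 and 6973, 4415 and 4599 units (log2 difference 2.34, SE 0.29, adjusted p = 0.135, 0.0242 in the 4-group fit), and Higd1a, a hypoxia-inducible inner-membrane protein, at 164 to 386 and 626 to 915 units.

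P4ha2, a collagen prolyl hydroxylase, had 849, 1682 and 802 units in MYC tumours and 4177, 6425 and 3136 in VM tumours (log2 difference 2.14, SE 0.34, 0.00329 as adjusted p in the 4-group fit). Ankrd37, a small HIF-induced ankyrin protein, had 12.1, 355 and 208 and 1092, 570.1 and 763 units, and the vasodilator peptide gene Adm 14, 216 and 210.5 and 565, 501 and 234. For both genes the library of mouse 2917 lay far below those of mouse 2983, and for Adm the lowest VM value was little above the highest MYC value. Not all classical targets separated. Vegfa, the main angiogenic factor of the pathway, had 765, 3057 and 2051 units in MYC tumours and 2239.7, 2680.4 and 2634 in VM tumours. Ndrg1, the member with the highest values, was at 57569.9, 44123 and 27713 and 70237, 68262 and 47164 units. Car9, the carbonic anhydrase used as a clinical marker of VHL loss, was at 21.5, 611 and 564 and 46.6, 1652 and 43.2 units: mouse 3055 was the highest of the 6 libraries and the other 2 VM tumours lay below both libraries of mouse 2983. Ccnd1, the cyclin of early G1 and a known HIF-2 target in human renal carcinoma, had lower values in VM tumours, 447, 91.2 and 647 against 2857, 896 and 1518 units (log2 difference -2.61, SE 0.84, adjusted p = 0.296).

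**Figure D1:**
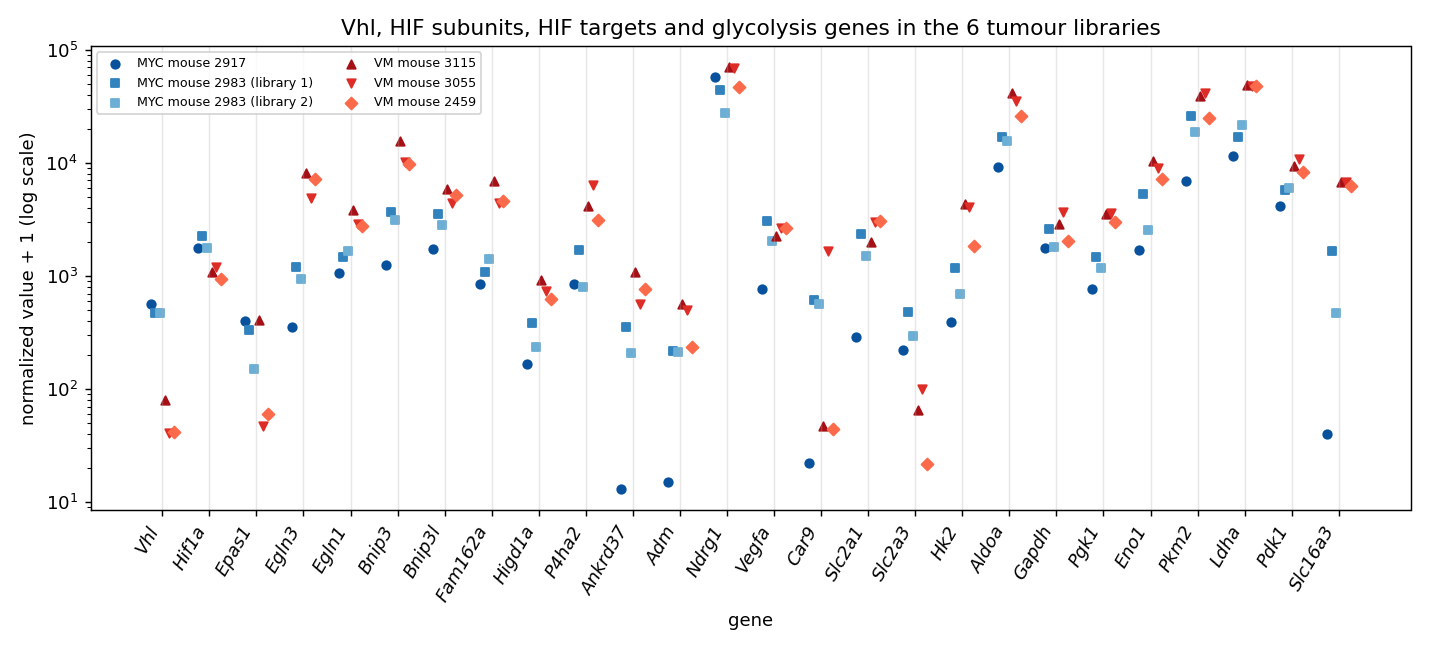
Normalized values plus 1 (log axis) of Vhl, HIF subunits, HIF targets and glycolysis genes, 1 point per tumour library; blue points are MYC tumours and red points VM tumours. Vhl, Hif1a and Slc2a3 lie lower in all 3 VM libraries, Egln3, Bnip3, Fam162a, Pgk1, Ldha and Slc16a3 lie higher in all 3, and Vegfa, Car9 and Ndrg1 overlap.

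Glucose uptake and glycolysis genes had higher values in VM tumours for 23 of 24 members, with a median log2 difference of 1.06. The groups did not overlap for 10 higher members (41.7%) and 1 lower member (4.17%), and 7 passed in the 4-group fit (Hk2, Aldoa, Tpi1, Pgk1, Pgam1, Eno1 and Ldha), none in the main test. With the kidney labels as separate groups 3 passed. Hk2, the inducible hexokinase that commits glucose to it, had 388, 1182 and 694 units in MYC tumours and 4325, 4108 and 1821 in VM tumours (log2 difference 2.42, SE 0.50, adjusted p = 0.18, 0.0121 in the 4-group fit). Aldoa, which splits fructose bisphosphate, was at 9122, 16939.8 and 15736 and 41352, 35104 and 26153 units (log2 difference 1.46, SE 0.42). Pgk1, the first ATP-yielding enzyme, was at 760.3, 1481 and 1186 and 3517, 3566 and 3007 units (log2 difference 1.74, SE 0.28, adjusted p = 0.144). Eno1, the enolase, was at 1706, 5249 and 2559.6 and 10479, 8952 and 7231 units, and Gm5506, a retrotransposed copy of Eno1 with which it shares sequence, at 5855, 21498 and 11041 and 40219, 33621 and 32099.9. The split of reads between this pair is uncertain, and both had higher values in VM tumours. Ldha, which turns pyruvate into lactate, was at 11474, 17076 and 21482 units in MYC tumours and 48783, 47995 and 48090.0 in VM tumours (log2 difference 1.70, SE 0.41, adjusted p = 0.217), with a narrow range in the VM group. Pkm2, the last kinase of the pathway, was at 6872, 25912 and 18746 and 39261, 41813 and 24900.1 units and overlapped, as did Gapdh at 1756 to 2614 and 2038 to 3681.

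Slc16a3 and Pdk1 were also chosen after their values were seen. Slc16a3, the lactate exporter MCT4, had 39.3, 1672 and 474 units in MYC tumours and 6700.1, 6833 and 6297 in VM tumours (log2 difference 5.12, SE 1.13, adjusted p = 0.191, 0.0132 in the 4-group fit). The VM values were close to each other while the MYC values were widely spread. The log2 difference was 2.89 without mouse 2917 and 7.36 without mouse 2983. Pdk1, which shuts pyruvate out of the mitochondrion, was at 4166, 5779 and 6006 and 9437, 10804 and 8348 units (log2 difference 0.94, SE 0.27). The glucose transporters differed from each other: Slc2a1 (GLUT1) had 288, 2353 and 1514 and 2013, 2976 and 3039 units and overlapped. Slc2a3 (GLUT3) had 221, 475 and 295 units in MYC tumours and 63.9, 99 and 21 in VM tumours (log2 difference -2.47, SE 0.76, adjusted p = 0.287), the 1 glycolysis member with lower VM values.

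Subunits of the respiratory chain and ATP synthase also had higher values in VM tumours, for 30 of 32 members, with a median log2 difference of 0.74. The groups did not overlap for 26 of them (81.2%), yet 0 passed in either the main test or the 4-group fit. Uqcrh, a complex III subunit, had 4757, 4077 and 4013 units in MYC tumours and 14859, 8337 and 8549.9 in VM tumours (log2 difference 1.22, SE 0.33, adjusted p = 0.245). Cox6c, of complex IV, was at 3285, 2355 and 2713 and 8862, 4975 and 5523 units, and Ndufa1, of complex I, at 976, 466 and 894 and 2072, 1153 and 1197. The ATP synthase subunits with the highest values differed little, Atp5b at 39886, 38019 and 38705 and 52081, 50400.0 and 43911 units without overlap and Atp5a1 at 28466 to 32826 and 30669.5 to 41352 units with overlap. For each of these 5 genes the library of mouse 3115 was the highest of the 6.

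Transcript length moved with the groups and bears on this list. The 9257 genes averaging 200 units or more were split by transcript length into 10 bins of equal size. Over these, the median log2 difference between VM and MYC tumours went from 0.32 in the shortest bin (up to 856 bases) to -0.33 in the longest (5105 bases or more), lower at each step. The share of genes without overlap that were higher in VM tumours went from 30.9% to 2.27%, and the share that were lower from 6.15% to 27.7%. The first library of MYC mouse 2983 had a median deviation of -0.3 in the shortest and 0.46 in the longest bin, and the library of VM mouse 3115 the opposite, 0.35 and -0.25; mouse 3055 stayed between -0.06 and 0. The respiratory subunits have a median transcript length of 935 bases. With the median of each length bin removed per library, an alternative chosen after seeing the data, their median was 0.44 and 20 of 32 were higher without overlap, against 9.14% of all genes. The part of transcript length in the remaining difference was not tested. HIF targets (median length 2662 bases) then had a median of 1, with 14 higher members without overlap, and glycolysis genes (1768 bases) a median of 1.09 with 10. Other short-gene families chosen after their values were seen lay in the same direction, cytosolic ribosomal proteins with a median of 0.46 over 91 genes and mitochondrial ribosomal proteins with 0.49 over 75, and 0.19 and 0.26 with length removed.

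**Figure D2:**
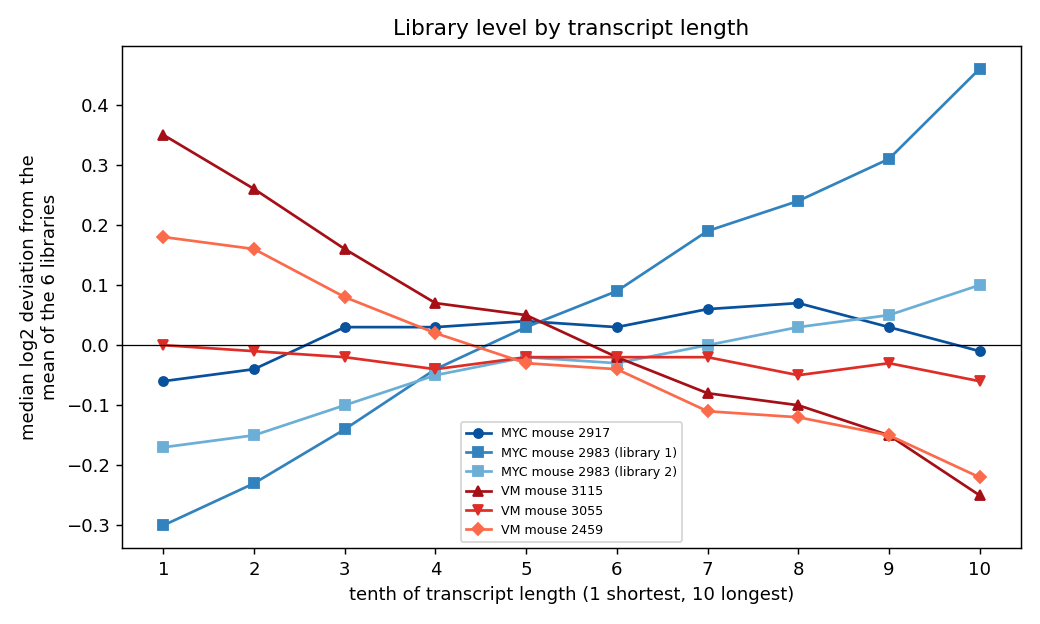
Median log2 deviation of each library from the mean of the 6 libraries, for genes grouped into 10 bins of transcript length from shortest to longest (1 line per library). The first library of MYC mouse 2983 runs from -0.3 up to 0.46, VM mice 3115 and 2459 run downwards, and the other lines are flatter.

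Me1 and Idh1 encode cytosolic enzymes that make NADPH, and both were chosen after their values were seen. Me1, the cytosolic malic enzyme (chr9:86474970-86589947, mm9), had 609, 349 and 888 units in MYC tumours and 3422, 3459 and 4021 in VM tumours (log2 difference 2.64, SE 0.20, adjusted p = 0.0697, 0.00408 in the 4-group fit). Idh1, the cytosolic isocitrate dehydrogenase, was at 1339.6, 1265 and 983 and 4466, 4269 and 3856 units (log2 difference 1.78, SE 0.20, adjusted p = 0.129, 0.00141 in the 4-group fit). Normal kidney lay above both groups for Me1 (10898 ± 3287 units, SD, n = 5) and for Idh1 (13320.1 ± 1469). The NRF2 target list to which Me1 belongs had a median of -0.16, 0.09 after quantile normalization, with 5 of 20 members without overlap higher (25%) and 2 lower (10%). Hmox1, the heme oxygenase, was at 336, 660.5 and 364 and 931, 1546 and 1076 units, and the peroxiredoxin gene Prdx1 at 9512 to 12736 and 14633 to 20122. Tkt, the transketolase of the pentose phosphate route, lay lower in VM tumours at 5772 to 8459.8 against 8929 to 11441 units (log2 difference -0.50, SE 0.27).

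Lipid storage and lipid synthesis genes showed no common direction, with a median of -0.07 (0.03 after TMM rescaling), 3 of 30 members without overlap higher (10%) and 6 lower (20%). Acadm, which oxidises medium-chain fatty acids, had 3695, 1563 and 4062 units in MYC tumours and 12738, 11674 and 6681 in VM tumours (log2 difference 1.71, SE 0.36, 0.0189 as adjusted p in the 4-group fit). Scd2, a fatty acid desaturase, was at 10532 to 12890.4 and 18494 to 20021 units. Acsl1, which activates long-chain fatty acids, was lower in VM tumours with 216, 146 and 170.2 against 661, 729.9 and 648 units (log2 difference -1.94, SE 0.32, adjusted p = 0.144). Lpl, the lipoprotein lipase, was outside the list and chosen after its values were seen; it had 1757, 2330.2 and 2476 units in MYC tumours and 253, 415 and 509 in VM tumours, with VIM tumours at 2239 ± 700.1 (SD, n = 3).

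Cdkn2a, which encodes the p16Ink4a and p19Arf tumour suppressors (chr4:88920377-88940557, mm9), had 108, 2872 and 59.3 units in MYC tumours and 4298, 4347 and 3392 in VM tumours (log2 difference 4.23, SE 0.53, adjusted p = 0.135, 0.0162 in the 4-group fit). The 2 tumour libraries of mouse 2983 differed widely from each other, and 1 of them came near the VM range. Normal kidney had 1.37 ± 1.56 units (SD, n = 5) and VIM tumours, which lack Ink4a/Arf, 53.1 ± 36.7 (SD, n = 3). With samples left out the log2 difference ranged widely. It was 2.83 without the Cdkn2a-low library of mouse 2983 and 3.26 without mouse 2917, neither of which passed, and 5.62 without the Cdkn2a-high library of mouse 2983 and 5.19 without that mouse, both of which passed. The 7 CDK inhibitors had a median of 0.69, with Cdkn2a and Cdkn2d higher and Cdkn2c lower without overlap. Cdkn1a, the p53-induced inhibitor p21, was at 305, 1193 and 823 and 5929, 265 and 449 units, and Cdkn1b (p27) at 1505 to 2167 and 1667 to 1788. Mouse 3115 had the highest Cdkn1a value, while mouse 3055 lay below all MYC libraries and mouse 2459 within their range.

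The 25 p53 targets had a median of 0.02, with no member higher without overlap and 1 lower (Apaf1). Their summed level was 19906 to 23500 units in MYC tumours, 52642 in mouse 3115, and 17365 and 17261 in the other VM tumours. Zmat3, an RNA-binding p53 target, had 2354, 659 and 2251 and 7839.9, 773 and 566 units, and the apoptosis gene Pmaip1 1150.2 to 2779 and 2504 to 4116. Lists tied to MYC and to growth had medians near that of all genes. The MYC and MAX network had a median of -0.07 over 13 genes (0.03 after TMM rescaling and 0.02 after quantile normalization), and its members with the highest values overlapped, Mxi1 at 3536 to 5364 and 3253 to 6178 units and Mga at 1909.5 to 4373 and 1769.6 to 2493. Ribosome biogenesis had a median of -0.06 over 24 genes (0.04 after TMM rescaling), with 3 members higher without overlap (12.5%) and 4 lower (16.7%). Ncl, the nucleolar protein nucleolin, was at 22873, 31951 and 27306 and 17887, 21959.8 and 16259 units, and Npm1, nucleophosmin, at 15330.2 to 19199 and 14729.9 to 18889.

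Replication and mitosis genes overlapped for most members. DNA replication and G1/S genes had a median of -0.36 over 27 genes, with 2 higher without overlap (7.41%) and 4 lower (14.8%). Their summed level was lowest in mouse 3115, 10525 units, against 22082 to 35118 in the other 5 libraries. Mcm6, of the replicative helicase, had 2064, 3091 and 3631 and 691, 1904 and 2365 units, and the ribonucleotide reductase subunit Rrm1 2553, 1875 and 4052 and 1338, 2293 and 2642. Mitosis genes had a median of -0.24 over 25 genes with none apart in either direction, the proliferation marker Mki67 at 2702, 3569 and 7685 and 1965, 3440.2 and 4281 units and the topoisomerase Top2a at 2570.0 to 5373 and 1193 to 4457. Ccnd2, a D-type cyclin chosen after its values were seen, had 521, 2748 and 1054 units in MYC tumours and 109, 19.6 and 58 in VM tumours (log2 difference -4.21, SE 0.84, 0.0124 as adjusted p in the 4-group fit).

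**Figure D3:**
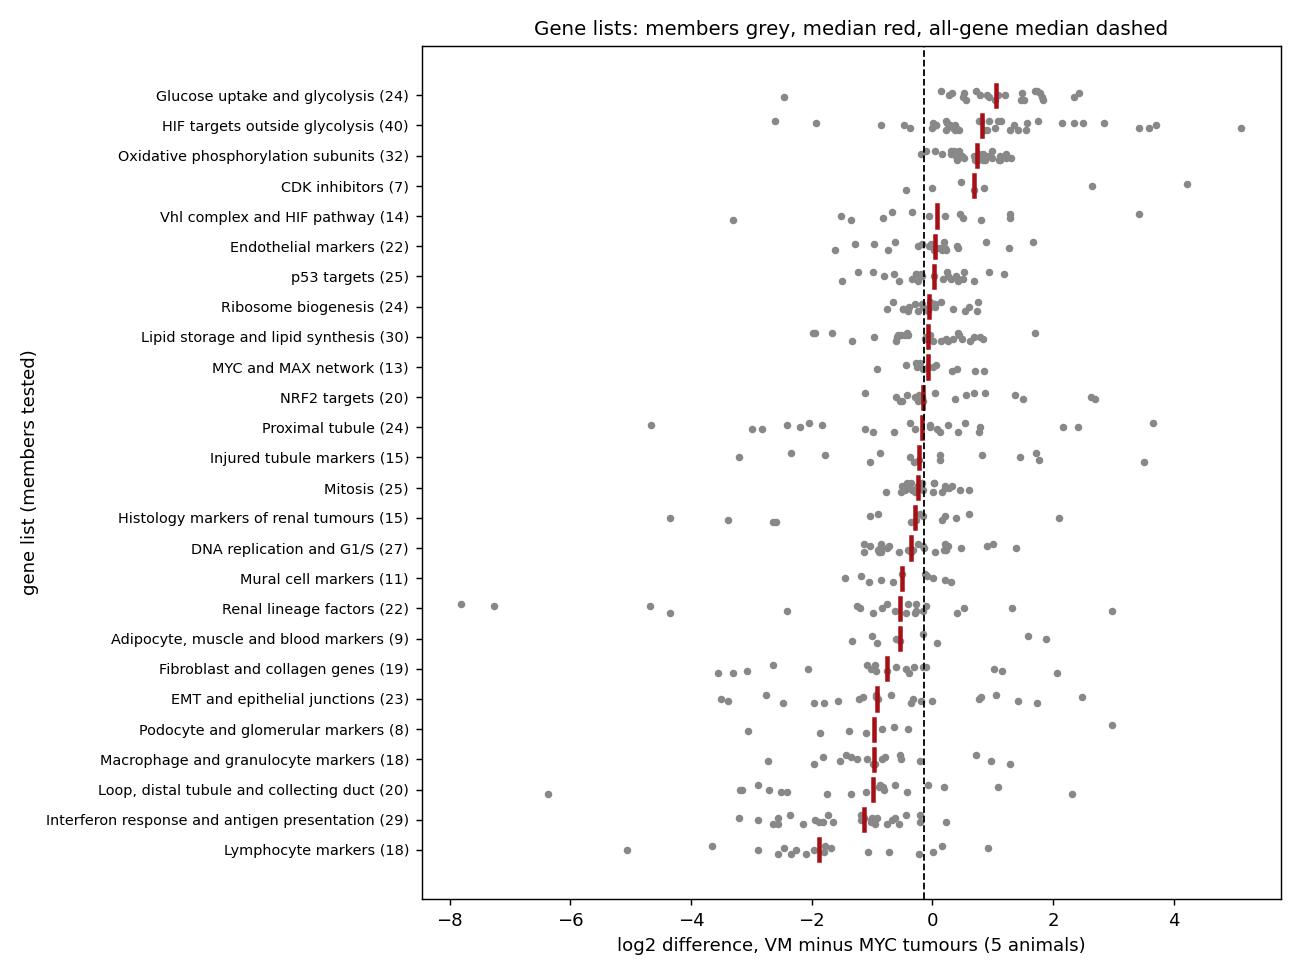
Log2 difference between VM and MYC tumours over 5 animals for the tested members of each gene list (grey points), the median of each list (red line) and the median of all genes (dashed line, -0.13). Glycolysis, HIF targets and oxidative phosphorylation have the highest medians (1.06, 0.83 and 0.74) and lymphocyte and interferon genes the lowest (-1.88 and -1.13).

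Transcription factors and markers of the renal lineage had lower values in VM tumours for 18 of 22 members, with a median of -0.53. Of these, 8 did not overlap (36.4%, against 13.5% of all genes) and none was higher without overlap. In the 4-group fit 4 lower members passed (Pax2, Sim1, Irx2 and Pkhd1), as did 1 higher (Wt1). None passed in the main test, and 3 passed with the kidney labels as separate groups. Irx2, an Iroquois-family patterning factor, had 183, 421 and 527 units in MYC tumours and 0, 0 and 1.23 in VM tumours (adjusted p = 0.12, 0.00065 in the 4-group fit). With VM tumours set to 3 reads per library, this is at least 94.4-fold below the mean of the 3 MYC libraries. Such bounds use the mean of the higher group, and its single libraries can lie closer to the other group. Sim1, a bHLH-PAS transcription factor, was at 193, 253 and 329 units in MYC tumours and 2.66, 0 and 0 in VM tumours, at least 64.7-fold below the MYC mean (adjusted p = 0.135, 0.0147 in the 4-group fit). Pax2, a regulator of early nephron formation, was at 62.5, 10.8 and 29.7 and 3.99, 0 and 0 units, at least 8.59-fold below the MYC mean. Pou3f3, a factor of the distal nephron, was at 945, 668 and 1155 and 217, 0 and 205 units. It was not detected in mouse 3055 and was present in the other VM tumours. Pkhd1, the fibrocystin gene, was at 5307, 4100.3 and 5706 and 1953, 2492 and 1985 units (log2 difference -1.25, SE 0.21). The members with the highest values overlapped, Cdh16, the Ksp-cadherin whose promoter drives the transgenes, at 13766, 12503 and 10230.2 and 11336, 14725 and 8544 units and Tfcp2l1 at 4487 to 4744 and 2687 to 7656. Wt1, the podocyte and nephron progenitor factor, was at 0.933, 34 and 0 and 41.3, 16.5 and 24.7 units.

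A block of HoxB genes separated the groups in the same way. Hox genes encode positional factors and lie in 4 clusters in which neighbours are often expressed together. They were no list of this comparison and were chosen after their values were seen. Of the 10 HoxB genes in the table, 9 were tested, 8 were lower in VM tumours without overlap and 1, Hoxb13, was higher. In the 4-group fit Hoxb5, Hoxb6, Hoxb7 and Hoxb8 passed as lower and Hoxb13 as higher. Hoxb8 had 985, 301 and 229 units in MYC tumours and 2.66, 0 and 4.93 in VM tumours (log2 difference -7.51, SE 1.06, adjusted p = 0.137, 0.000947 in the 4-group fit). Hoxb7 had 702, 245 and 289.5 and 3.99, 0 and 8.63 units. Hoxb6 had 674, 264 and 210.5 and 16, 0 and 2.47 units, and Hoxb5 294, 165 and 105 and 3.99, 1.03 and 1.23. The VM values of these neighbours lay at a few reads or 0, with the highest, 16 units, for Hoxb6 in mouse 3115. On either side the gap was narrower. Hoxb4 stood at 136 to 174 units in MYC tumours and 108 to 123 in VM tumours, and Hoxb9 at 715, 827 and 507 and 289, 2.06 and 46.9, with mouse 3115 nearest to the MYC tumours. Hoxb13, at the far end of the cluster, was instead at 0 to 6.17 units in MYC tumours and 7.40 to 45.3 in VM tumours. In the other clusters 2 of 10 HoxA, 0 of 7 HoxC and 2 of 6 HoxD genes were lower without overlap. HoxC genes such as Hoxc9 and Hoxc10 were near 0 in MYC mouse 2917 and VM mouse 2459 and at 124 units or more in the other 4 libraries.

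**Figure D4:**
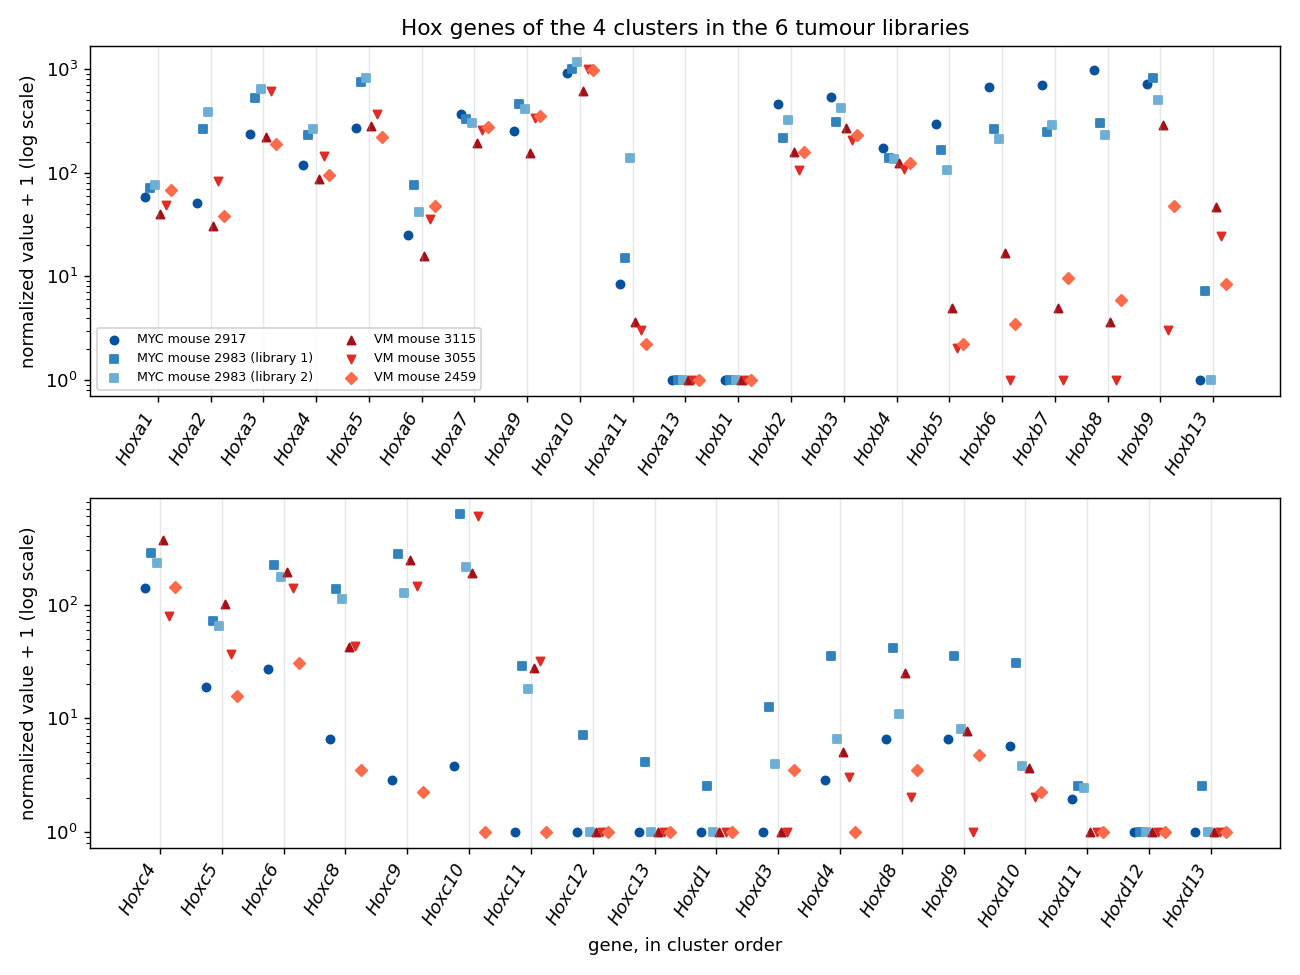
Normalized values plus 1 (log axis) of the Hox genes of the 4 clusters in cluster order, 1 point per tumour library (blue MYC, red VM). Hoxb5 to Hoxb8 lie at 104.52 units or more in the MYC libraries and at 16 units or less in the VM libraries, while Hoxb4 lies at 108 units or more in all 6.

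Nephron segment markers differed in both directions. The 24 proximal tubule genes had a median of -0.17 (0.03 after quantile normalization), with 1 higher without overlap (4.17%), Gatm, and 3 lower (12.5%), Slc13a3, Aqp1 and Kap. Gatm, which makes the creatine precursor guanidinoacetate in the proximal tubule, had 1089, 336 and 155 units in MYC tumours, 11755, 1811 and 11954 in VM tumours and 20689 ± 4776 (SD, n = 5) in kidney. Hnf4a, the proximal tubule regulator, was at 4157 to 7565 and 1829.6 to 4633 units in the 2 tumour groups. Loop, distal tubule and collecting duct genes had a median of -0.99, with 5 of 20 lower without overlap (25%) and 1 higher (5%), and 5 members too low to test. Umod, the defining gene of the thick ascending limb, had 24.3, 2475 and 74.9 units in MYC tumours, 0, 1.03 and 0 in VM tumours and 59500.1 ± 19555 (SD, n = 5) in kidney. Wnk1 and Cldn10, the members with the highest values, overlapped, at 3237 to 4629.6 and 2156 to 3567 units for Wnk1 and 1131, 149.7 and 246 and 591, 1526 and 1094 for Cldn10.

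The first library of mouse 2983 held the most Umod of the 6 libraries and also the most Kap, with 685 units of Kap, a proximal tubule protein induced by androgen, against 97.0 and 9.89 in the other MYC tumours. VM tumours had 1.03 to 3.99 units of Kap. The 8 podocyte and glomerular markers had a median of -0.96 and summed to 6471 to 9502 units in MYC tumours and 4903 to 5676 in VM tumours, for the most part through 2 genes that the cultured tumour lines also express, Podxl at 1589 to 1982 and 663 to 1338 units and Cd2ap at 3967 to 5682 and 3341 to 3515. The part of admixed kidney in the lower VM values of Umod and Kap was not tested, and neither was it for Irx2, Sim1 and Hoxb5 to Hoxb8. The latter genes each had at least 104.52 units in all 3 MYC libraries. Their means in normal kidney were 171 units for Irx2, 404 for Sim1, 68.1 for Hoxb5, 304 for Hoxb6, 437 for Hoxb7 and 361 for Hoxb8.

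Injury and histology markers were mixed. The 15 injured tubule markers had a median of -0.22, with Havcr1 and Itgb6 higher and Vcam1 lower without overlap. Havcr1, the injury receptor KIM-1, had 1271, 427 and 212 units in MYC tumours and 5619, 3782 and 16417 in VM tumours (log2 difference 3.51, SE 0.78, adjusted p = 0.191). Itgb6, an epithelial integrin that activates TGF-beta, was at 259 to 599 and 778 to 1354 units. Vcam1, an adhesion molecule of inflamed tubules, was at 11985, 1890.4 and 870.1 and 286, 521 and 517 units (log2 difference -3.20, SE 0.86, 0.0416 as adjusted p in the 4-group fit). Spp1, osteopontin, was the member with the highest values at 86373 to 233606 and 147825 to 235376 units, followed by Anxa2 at 2681 to 6185 and 4719.6 to 9625. Among 15 tested histology markers, with a median of -0.28, Met was at 3113 to 5171 and 3523 to 5993 units, and Gpnmb, a lysosomal glycoprotein used as a marker in renal tumours, at 465, 1452 and 1518 and 14747, 2257 and 1353, highest in mouse 3115. Epithelial junction and mesenchymal genes had a median of -0.91, with 6 of 23 lower without overlap (26.1%) and none higher. Loxl1, a collagen and elastin crosslinking oxidase, had 1760.3, 1182 and 1202 units in MYC tumours and 374, 192 and 245 in VM tumours (log2 difference -2.47, SE 0.36, 0.00272 as adjusted p in the 4-group fit). Both junction genes (Epcam, Cldn7, Tjp1) and mesenchymal genes (Cdh2, Zeb1) were among the lower members, and Epcam at 17.7, 926 and 14.1 and 6.66, 5.15 and 6.17 units was far higher in the first library of mouse 2983 than in the rest. Loxl2 and Vim overlapped, at 436 to 4708 and 2269 to 6158 units and 1046 to 5363 and 707 to 1309 units.

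Interferon response and antigen presentation genes were lower for 28 of 29 members, with a median of -1.13. Of these, 4 did not overlap (13.8%, close to the 13.5% of all genes) and 0 passed in the main or the 4-group fit. Their summed levels overlapped, at 16373 to 30289 units in MYC tumours and 8174 to 22925 in VM tumours. B2m, the light chain of MHC class I, had 7769, 6645 and 4383 units in MYC tumours and 4403, 1978 and 2681 in VM tumours (log2 difference -1.18, SE 0.37, adjusted p = 0.293), and H2-K1, a class I heavy chain, 7506, 6677 and 4839 and 5782, 3246 and 1829.8. Cxcl10, an interferon-induced T cell chemokine, was at 269.6, 202 and 362 and 98.5, 97.9 and 65.4 units, and Cd74, the class II invariant chain, at 2503, 3668 and 373 and 695, 77.3 and 118. Lymphocyte markers had a median of -1.88, with 6 of 18 lower without overlap (33.3%), and summed to 93.9 to 1189 units in MYC tumours and 16.6 to 61.9 in VM tumours. Lck, a T cell kinase, was at 107, 49.4 and 43.8 and 9.32, 7.22 and 9.86 units, and Igj, the plasma cell joining chain, at 143, 991 and 16.9 and 9.32, 2.06 and 1.23. The cultured MYC line of mouse 2983, grown with doxycycline, also had 52.1 ± 9.07 units of Lck, and the VM line 0.98 ± 1.15 (SD, n = 4 cultures each). From which cells the Lck reads of the tumours came was not tested. Cd8a was at 52.2, 20.1 and 1.41 and 2.66, 0 and 0, at or below 3 reads in every VM library. Macrophage and granulocyte markers had a median of -0.97, none stood apart, and their summed levels overlapped at 8025 to 29903 units in MYC tumours and 5241 to 16582 in VM tumours, with Lyz2 at 11299, 1609.6 and 1801 and 5539, 1325 and 2234 units and Cd14 at 1620.1 to 2768 and 1238 to 1823.

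Vessel and stromal markers overlapped for most members. Endothelial markers had a median of 0.05 (0.43 after quantile normalization) and summed to 1246 to 5140 units in MYC tumours and 1785 to 7723 in VM tumours, with mouse 3115 highest. Apln, the apelin ligand of endothelial tip cells, was the 1 member apart, at 123, 289 and 194 and 700.4, 525 and 445 units (log2 difference 1.67, SE 0.39, adjusted p = 0.216), and Plvap, of fenestrated endothelium, was at 120.1 to 674 and 214 to 1711. Mural cell markers had a median of -0.5, with Cspg4 at 1623 to 2932 and 1430.3 to 2577 units and Acta2 at 101, 1265 and 2788 and 410.1, 75.3 and 223. Fibroblast and collagen genes had a median of -0.75, with 2 of 19 lower without overlap (10.5%), Sparc at 2465 to 5903 and 2269 to 8692 units and Postn at 64.4, 716 and 196 and 5149, 96.9 and 83.8, again high in mouse 3115. Blood, muscle and fat markers had a median of -0.54 over 9 tested genes, with the haemoglobin genes Hba-a2 at 414 to 1640.4 and 477 to 4304 units and Hbb-b1 at 109 to 435 and 86.6 to 1434.

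The genes with the largest differences among those that passed in the 4-group fit, had 50 units or more in the higher group and did not overlap were named by a rule adopted after the main test passed none. The 10 higher in VM tumours were Angpt1, Ntsr1, Aire, 4930583H14Rik, Kcne4, Fetub, Fst, Xlr, Krt36 and Tex13. Angpt1, the Tie2 ligand that stabilises vessels, had 15.9, 10.8 and 0 units in MYC tumours and 1686, 834 and 928 in VM tumours (log2 difference 7.17, SE 0.75, adjusted p = 0.12, 0.000266 in the 4-group fit). VIM tumours had 102 ± 27.3 units (SD, n = 3). Normal kidney had 399 ± 136 (SD, n = 5), between the MYC and the VM libraries. Kcne4, a potassium channel subunit, was at 12.1, 46.3 and 575 and 4749.7, 2577 and 1879 units, the neurotensin receptor Ntsr1 at 0, 13.9 and 0 and 1218, 37.1 and 361, and Fst, the activin antagonist follistatin, at 5.60, 81.8 and 8.47 and 2032, 152 and 1122. Xlr, an X-linked gene expressed in lymphocytes and germ cells, was at 11.2, 0 and 35.3 and 358, 361 and 513 units. Krt36 was not detected in any MYC library and was at 137, 37.1 and 14.8 units in VM tumours, with a VM mean at least 13.6-fold higher. Afp, the fetal serum protein alpha-fetoprotein, was also apart at 63.4, 432 and 133 and 2453, 3694 and 5859 units (log2 difference 4.92, SE 0.60, adjusted p = 0.135), as was Col16a1, a minor collagen, at 212, 298 and 16.9 and 4477, 1059.8 and 1119.6; both were chosen after their values were seen.

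The 10 lower in VM tumours were Odz3, Irx2, Hoxb8, Sim1, Mettl7a2, Kcnk1, Cyp2e1, Hoxb7, Hoxb6 and Ugt3a2. In this order the means of VIM tumours, which also carry the Vhl deletion, were 124, 72.2, 54.8, 152, 955, 1182, 930, 78.3, 52.1 and 327 units. Those of MYC tumours were 613, 377, 505, 258, 416, 1967, 718, 412, 383 and 464. The VIM mean thus lay above the VM mean for all 10, and for Mettl7a2 and Cyp2e1 also above the MYC mean. Odz3, the teneurin-3 adhesion receptor, had 121, 1128 and 589 units in MYC tumours and 0, 1.03 and 0 in VM tumours, at least 153-fold below the MYC mean (adjusted p = 0.135, 0.00143 in the 4-group fit). Kcnk1, the potassium leak channel TWIK1, was at 282, 2167 and 3452 and 13.3, 1.03 and 11.1 units (log2 difference -6.96, SE 1.28). Cyp2e1 and Ugt3a2, enzymes of xenobiotic metabolism with high values in normal kidney, were at 1555, 285 and 314 and 353.5, 963 and 76.3 units in MYC tumours and 17.3, 1.03 and 3.70 and 0, 27.8 and 0 in VM tumours. The receptor tyrosine kinases Egfr, Erbb3 and Fgfr1, chosen after their values were seen, were lower in VM tumours without overlap, Egfr at 252, 263 and 372 against 877, 1169.8 and 1148 units (log2 difference -1.79, SE 0.30, adjusted p = 0.144, 0.0306 in the 4-group fit), Erbb3 at 193 to 306 against 525 to 1455 and Fgfr1 at 87.9, 28.9 and 11.1 against 285, 823 and 236.

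Levels in the other groups are set beside these values without a test. VIM tumours, labelled as lacking Vhl as well, had 252 ± 51.7 units of Vhl (SD, n = 3), between the VM tumours and normal kidney at 686 ± 69 (SD, n = 5). Egln3 was at 4876 ± 2943 units in VIM tumours and 469 ± 114 in kidney. In the same order Slc16a3 was at 2794 ± 941 and 6.08 ± 2.64, and Bnip3 at 15511 ± 16553 and 3976 ± 874. For Slc16a3 and Hk2 kidney lay below every MYC and VM tumour library, while for Me1, Idh1 and Gatm the order of means from highest was kidney, VM and MYC. Cultured lines with doxycycline, 4 libraries each of 1 VM line from mouse 3055 and of 1 MYC line from mouse 2983, were also profiled, where n counts cultures and not animals. They gave 13.1 ± 2.07 and 451 ± 12.2 units of Vhl, 4379.7 ± 69.2 and 201 ± 14.8 of Egln3, and 9874 ± 630.0 and 1478 ± 71.6 of Slc16a3 (SD, n = 4, VM line first). The lines also set apart Hoxb7 (5.47 ± 1.88 and 452 ± 12.4 units), Irx2 (0.213 ± 0.426 and 299 ± 16.1) and Odz3 (0 ± 0 and 2661 ± 106). Other genes differed little or the other way in the lines: Cdkn2a was at 3804 ± 359.7 and 3171 ± 102 units, Idh1 at 745 ± 20.4 and 749 ± 15.7, Kcnk1 at 873 ± 25.5 and 889 ± 13.2, and Fst at 6.69 ± 2.19 and 3697 ± 177. Pax2 and Sim1, at 3 reads or fewer in each VM tumour library, were present in both lines. Pax2 had means of 123 and 91.0 units and Sim1 was at 20.9 ± 6.97 and 62.7 ± 10.8. Both lines came from mice that also gave tumour libraries, so they add no further animals. Mural and fibroblast genes named above, which overlapped between the tumour groups, had lower means in the VM line. These were 0.801 and 17021 units for Acta2, 9.37 and 9292 for Postn, 3423 and 13786 for Sparc and 1037 and 1231 for Cspg4 (VM line first).

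**Figure D5:**
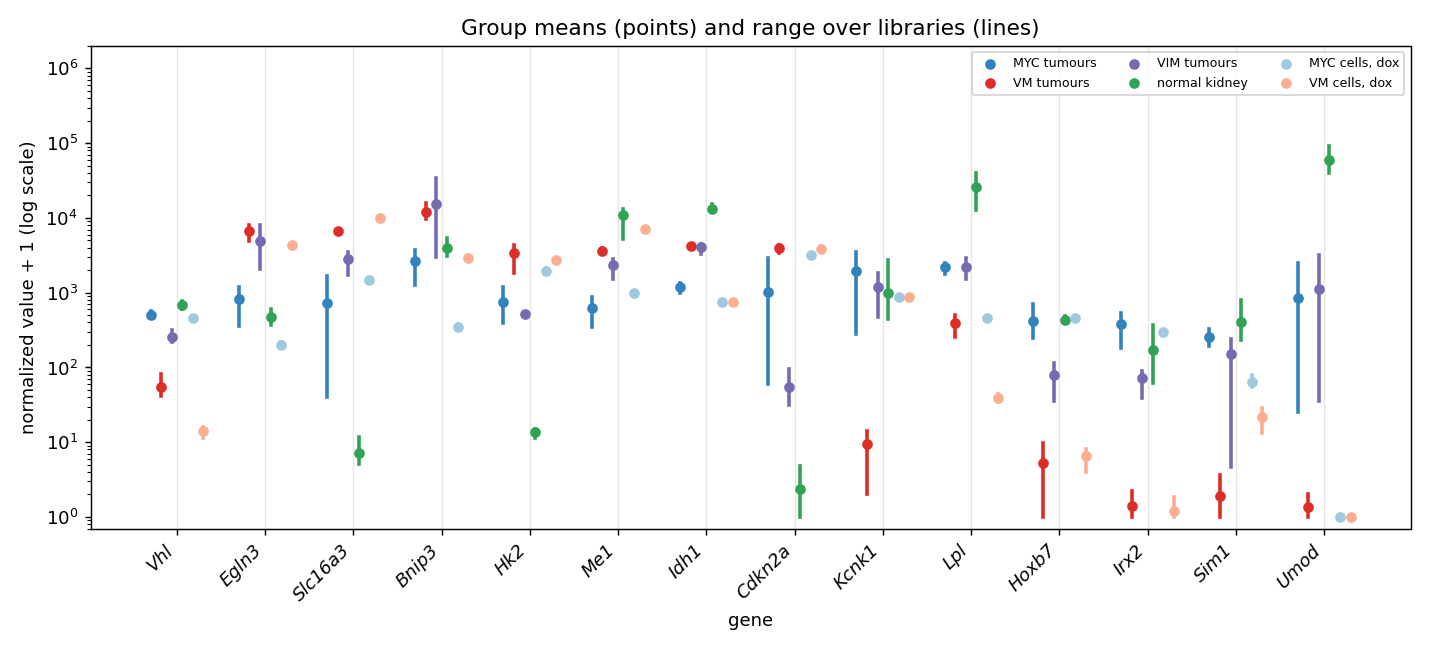
Normalized values plus 1 (log axis) of 14 genes in MYC, VM and VIM tumours (3 libraries each), normal kidney (5) and doxycycline-treated MYC and VM lines (4 cultures each); points are means and lines span the lowest to the highest library. Vhl, Hoxb7 and Irx2 are lower in the VM tumours and the VM line than in the MYC tumours and the MYC line, and Egln3, Slc16a3 and Me1 are higher.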

How the data were processed

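RNA of bulk kidney tumours was sequenced as paired-end, stranded mRNA libraries. Per the study's methods, the authors aligned reads to mm9 with MapSplice, processed alignments with Picard (version 1.64 in the submitters' processing notes) and SAMtools, and quantified genes with RSEM. The deposited values are a signal scaled by the authors to an upper quartile of about 1000 per library. Between 94.6% and 95.9% of values under 20 reads were whole reads within 0.02 of a read, which gave the depth. All sample columns of the table were mapped (0 unused).

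Values were tested as log2(value + 1) with limma 3.58.1 (eBayes with trend, two-sided, Benjamini-Hochberg) in R 4.3.3, for genes above 0 in at least 2 of 5 animals, and edgeR 4.0.16 was run on the recovered reads. The script was tested on simulated data. Plots used Python 3.11.15 and matplotlib 3.10.9. Positions came from the mm9 annotation (20893 of 21704 symbols, 96.3%) and promoters from RefSeq (GRCm38.p6).

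Genes named were Vhl, Myc and Cdkn2a, the 10 largest differences in each direction, and up to 5 passing members per list or, where fewer than 2 passed, the 2 with the highest mean, plus a few defining members. As none passed, the 10 largest were taken from the fit with normal kidney. The members and lists were chosen with earlier results of these data known. Samples were grouped by genotype label. Replicates are tumours of separate mice except for mouse 2983, whose 2 libraries were averaged on the log2 scale. Alternatives were other pseudocounts, filters, scalings, fits and samples left out. A few list members were not analysed here.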

Additional observations from a re-analysis of the deposited data

How the results depend on the processing

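The count of 0 passing genes became 23 with no filter on low values, 21 with the 6 libraries as independent samples, 16 with the 3 tumour groups in the fit, 13 with no moderation of the variance, 350 with normal kidney also in the fit and 280 with its B6 and KT labels as separate groups. It stayed at 0 with pseudocounts of 0.1 and 10, a minimum mean of 10 units, TMM, quantile normalization, averaging before the log, voom, edgeR and length removal; the last 2 were chosen after seeing the data. Leaving out 1 sample or mouse gave 0 to 10 genes: 2 without mouse 2917, 4 without the first library of mouse 2983 and 10 without that mouse, where the lone MYC animal is assumed to vary like the VM animals. For list members, the main count of 0 became 1 to 7 with normal kidney in the fit: 7 for glycolysis, 5 each for HIF targets and renal lineage factors, 3 for the Vhl and HIF pathway, 2 each for proximal tubule, NRF2 and lipid genes, and 1 each for CDK inhibitors, loop and distal tubule, injured tubule, histology, EMT, lymphocyte and podocyte genes. With the kidney labels as separate groups, also added after seeing the data, it was 5 for HIF targets, 3 each for the Vhl and HIF pathway, glycolysis and renal lineage, 2 for lipid genes and 1 each for CDK inhibitors, proximal tubule, EMT, NRF2 and podocyte genes. With the 3 tumour groups it was 1 each for the Vhl and HIF pathway, renal lineage, EMT and NRF2 lists. With 6 independent libraries it was 2 for renal lineage and 1 each for the Vhl and HIF pathway, HIF targets, EMT and NRF2. With no filter it was 1 each for NRF2 and podocyte genes, and with no moderation 1 for podocyte genes. Leaving out samples gave 0 to 3 for HIF targets and 0 to 1 each for the Vhl and HIF pathway, CDK inhibitors and injured tubule markers.

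Of 138 named genes, 114 had a log2 difference larger than its SE. Over 22 settings these gave 2504 values, of which 2360 kept direction and side of the threshold, 141 passed only under the alternative and 3 changed sign: Loxl2 (-0.11 without mouse 2917), Cldn10 (-0.18 without mouse 2983) and Vim (0 without mouse 2983). As no gene passed in the main fit, keeping the side of the threshold means not passing. Genes without overlap between the groups cannot change sign when samples are left out, so these counts do not measure how firm the differences are. Over all samples left out in turn, Loxl2 ranged from -0.11 to 2.97, Cldn10 from -0.18 to 2.37 and Vim from -1.81 to 0. The cause was not tested. No paired analysis was possible because replicate numbers in these groups were given in accession order and name no shared animal or batch. No fit with the mouse as a block is given here. With 2 MYC animals the spread within that group rests on 1 difference. The 2 libraries of mouse 2983 differed by a median of 0.494 on the log2 scale. The library of mouse 2917 and the first library of mouse 2983 differed by 0.568.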

Other observations

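Genes of chromosome 19 stood lower in 1 VM tumour. Over 346 genes averaging 200 units or more, the median deviation of the library of mouse 3115 from the mean of the 6 libraries was -0.75 on the log2 scale, and 87.3% of these genes were below 0. The other 119 values, 1 for each library and autosome or X chromosome, lay between -0.27 and 0.33. Both extremes were on chromosome 3, -0.27 in mouse 2459 and 0.33 in mouse 3115. Chromosome 4, which holds Cdkn2a, stood at -0.11, 0.04 and -0.1 in MYC tumours and 0.1, 0.09 and 0.09 in VM tumours. The part of such shifts in the values of single genes was not tested. The median log2 difference between VM and MYC tumours over 555 tested genes of this chromosome was -0.35, and -0.12 without mouse 3115, against -0.13 and -0.15 over all genes. DNA copy number was not analysed here.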
